A study of Mus musculus with 15 samples.

Results

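The genes described here drive the passage from G1 into S phase and copy the genome: 53 genes, chosen by symbol, of 19938 genes measured on the arrays. All 53 were found, each through a probe set with exactly 1 symbol; for genes with several such sets the brightest on average stands for the gene. They fall into 7 subgroups by role: 7 genes of E2F and cyclin E control, 11 of origin licensing, 7 of origin firing, 9 of the polymerases, 9 of the sliding clamp, its loader, RPA and flap processing, 5 of nucleotide synthesis and 5 of chromatin assembly and checkpoint control.

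Cells commit to S phase when cyclin E with Cdk2 helps to release the E2F transcription factors, which switch on most of the genes of DNA replication. Origins are first licensed in G1, when ORC, Cdc6 and Cdt1 load the Mcm helicase, and are then fired by Dbf4-dependent kinase with Cdc45 and GINS, after which primase and the polymerases take over. In germinal centres, B cells divide in the dark zone and are selected by antigen and T cell help in the light zone, and cells that receive more help are known to enter S phase there before they return to the dark zone.

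Donor B cells came from female SwHEL mice, whose B cells recognise hen egg lysozyme, and carried CD45.1. They were transferred into C57BL/6J mice, which carry CD45.2, and the mice received sheep red blood cells coupled to the lysozyme mutant HEL3x. On day 10, donor germinal centre B cells of the spleen (CD45.1+, CD45.2-, IgG1+, CD38 low) were sorted into dark zone cells (CXCR4 high, CD86 low) and light zone cells (CD86 high, CXCR4 low), each of high or low affinity. RNA was amplified and hybridised on 15 arrays: 4 of high affinity dark zone cells (Dzhi), 4 of low affinity dark zone cells (Dzlo), 3 of high affinity light zone cells (Lzhi; replicates 1, 2 and 4) and 4 of low affinity light zone cells (Lzlo). All 4 groups share the transfer, the immunization, the day and the IgG1+ gate, and the labels name no unimmunized or naive control. Nothing in the labels says whether the arrays of a group came from separate mice, so the p-values speak only of the spread from sample to sample, which may be technical. A code in the sample descriptions ties arrays to experiments. One code is written differently for dark and light zone samples, and both forms were read as 1 experiment, B. That reading gives 4 experiments, called A to D here, and the labels do not settle it. Zone comparisons within experiment B and the experiment block rest on it. Experiment D has no Lzhi array. Levels are log2 values after RMA, so a difference of 1 is a doubling, and the number of arrays limits the precision.

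The labelled cell type was checked against 9 germinal centre B cell markers: their mean level lay between 10.14 (Lzlo replicate 3) and 10.48 (Dzlo replicate 1), and each of the 9 was at 7.71 or more in every array. By mean level, neutrophil markers stood apart in both low affinity arrays of experiment D, and T cell markers in Lzlo replicate 3. Lzlo replicate 3 had a mean level of 9.08 over 12 neutrophil markers and of 7.27 over 10 T cell markers. Dzlo replicate 3 had 7.75 and 5.98. The neutrophil mean of the other low affinity arrays lay between 5.07 and 6.21. That of the high affinity arrays lay between 4.9 (Lzhi replicate 1) and 6.53 (Dzhi replicate 4). The highest single neutrophil marker was at 12.24 in Lzlo replicate 3 and 11.25 in Dzlo replicate 3. In the other arrays it ran from 6.07 (Lzhi replicate 1) to 10.37 (Dzhi replicate 2), so this signal was not confined to experiment D. The T cell mean was 6.31 in Lzlo replicate 4, 5.81 in Dzlo replicate 4 and 5.46 or less in the other 11 arrays. In units relative to each gene's mean over all arrays, the median neutrophil marker ranged from -0.68 to 0.51 in Dzhi, -0.88 to 1.80 in Dzlo, -1.22 to 0.16 in Lzhi and -0.80 to 3.24 in Lzlo. The same measure for T cell markers ranged from -0.22 to -0.12 in Dzhi, -0.31 to 0.28 in Dzlo, -0.48 to -0.16 in Lzhi and -0.56 to 1.86 in Lzlo. The median macrophage marker (of 12) and erythroid marker (of 7) stayed between -0.39 and 0.30 in every array, but the mean macrophage level was highest in Lzlo replicate 3 (5.95) and Dzlo replicate 3 (5.50), where Lyz2 was at 10.68 and 8.99. The median plasma cell marker (of 12) ranged from 0.14 to 0.44 in Dzhi against -0.26 to 0.10 in the other groups. The affinity results of the set and of each subgroup are therefore also given from a fit without Lzlo replicate 3 and Dzlo replicate 3, the experiment D low arrays, and so are many gene values that moved by over 1.5 times in it. For a gene compared in 1 zone, only the array of that zone is named, and the value and its error are from the same fit.

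E2F is known to act through a short promoter site. This motif was searched as TTTCCCGC, TTTCGCGC, TTTGCCGC or TTTGGCGC on both strands, in RefSeq promoter windows (build GRCm38.p6) that reach from 250 bases before to 50 bases after the annotated start. A window was at hand for 45 of the 53 genes, and 19 of them (42.2%) held a match, against 704 of 27025 genes (2.6%) with a window and 1 of 26 (3.85%) genes of a G2/M comparison list. By subgroup, 7 of 9 origin licensing genes, 4 of 7 polymerase genes and 3 of 6 E2F and cyclin E genes held one, and 0 of 5 nucleotide synthesis genes did. The CCAAT box, searched as CCAAT on both strands, was found for 27 of these 45 genes (60%), against 41.1% of all genes and 20 of 26 G2/M genes (76.9%). Some matches are not shown, such as that of Mcm7 at -165 and those of Mcm3, Cdt1 and E2f2, which lie after the start. The stretches below show other matches in licensing genes, in the E2F and cyclin E subgroup and in the catalytic subunit of the priming polymerase, each upstream of the start. They are given in the direction of the gene, with the E2F letters in capitals; positions count from the annotated start.
Mcm6: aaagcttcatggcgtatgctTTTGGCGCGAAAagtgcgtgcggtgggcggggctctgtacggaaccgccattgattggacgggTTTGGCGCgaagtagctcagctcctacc
Mcm5: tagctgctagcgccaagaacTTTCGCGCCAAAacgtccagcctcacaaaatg
Orc1: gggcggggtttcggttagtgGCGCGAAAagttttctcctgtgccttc
Cdc6: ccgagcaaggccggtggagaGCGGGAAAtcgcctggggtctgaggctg
E2f7: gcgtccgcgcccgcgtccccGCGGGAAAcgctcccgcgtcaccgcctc
Cdk2: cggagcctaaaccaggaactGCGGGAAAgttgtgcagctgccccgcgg
Pola1: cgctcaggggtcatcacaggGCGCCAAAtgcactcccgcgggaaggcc

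Mcm6, a subunit of the replicative helicase, is shown at chr1:128359725-128359835 (minus strand, positions -130 to -20) and has 3 matches, of which the pair at -110 and -106 overlaps on opposite strands. Mcm5, another helicase subunit, has such an overlapping pair at -153 and -149 (chr8:75109336-75109387, plus strand). Orc1, the largest subunit of the origin recognition complex, has its match at -27 (chr4:108579407-108579453, plus strand), and Cdc6, the helicase loader, at -138 (chr11:98907993-98908040, plus strand). E2f7, a repressive member of the E2F family, has a match at -198 (chr10:110745221-110745268, plus strand), Cdk2, the kinase partner of cyclin E, at -140 (chr10:128705164-128705211, minus strand), and Pola1 at -138 (chrX:93632266-93632313, minus strand). A match is a description of the letters and not a bound site. The 19 genes with a match and the 26 with a window but no match had like medians in the affinity comparison over both zones, 0.26 and 0.26 on the log2 scale, and the 8 genes without a window had 0.43; these differences were not tested.

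Across the arrays the mean level of a member ran from 6.28 for Cdt1 to 12.28 for Pcna, and the range over the 15 arrays from 0.78 for Dut to 2.92 for Rfc4. The arrays did not share out the extremes evenly. Lzlo replicate 3 held the lowest value of 22 of the 53 genes and Dzlo replicate 2 that of 12, while Dzhi replicate 3 held the highest value of 19 and Lzhi replicate 4 that of 13.

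**Figure D1:**
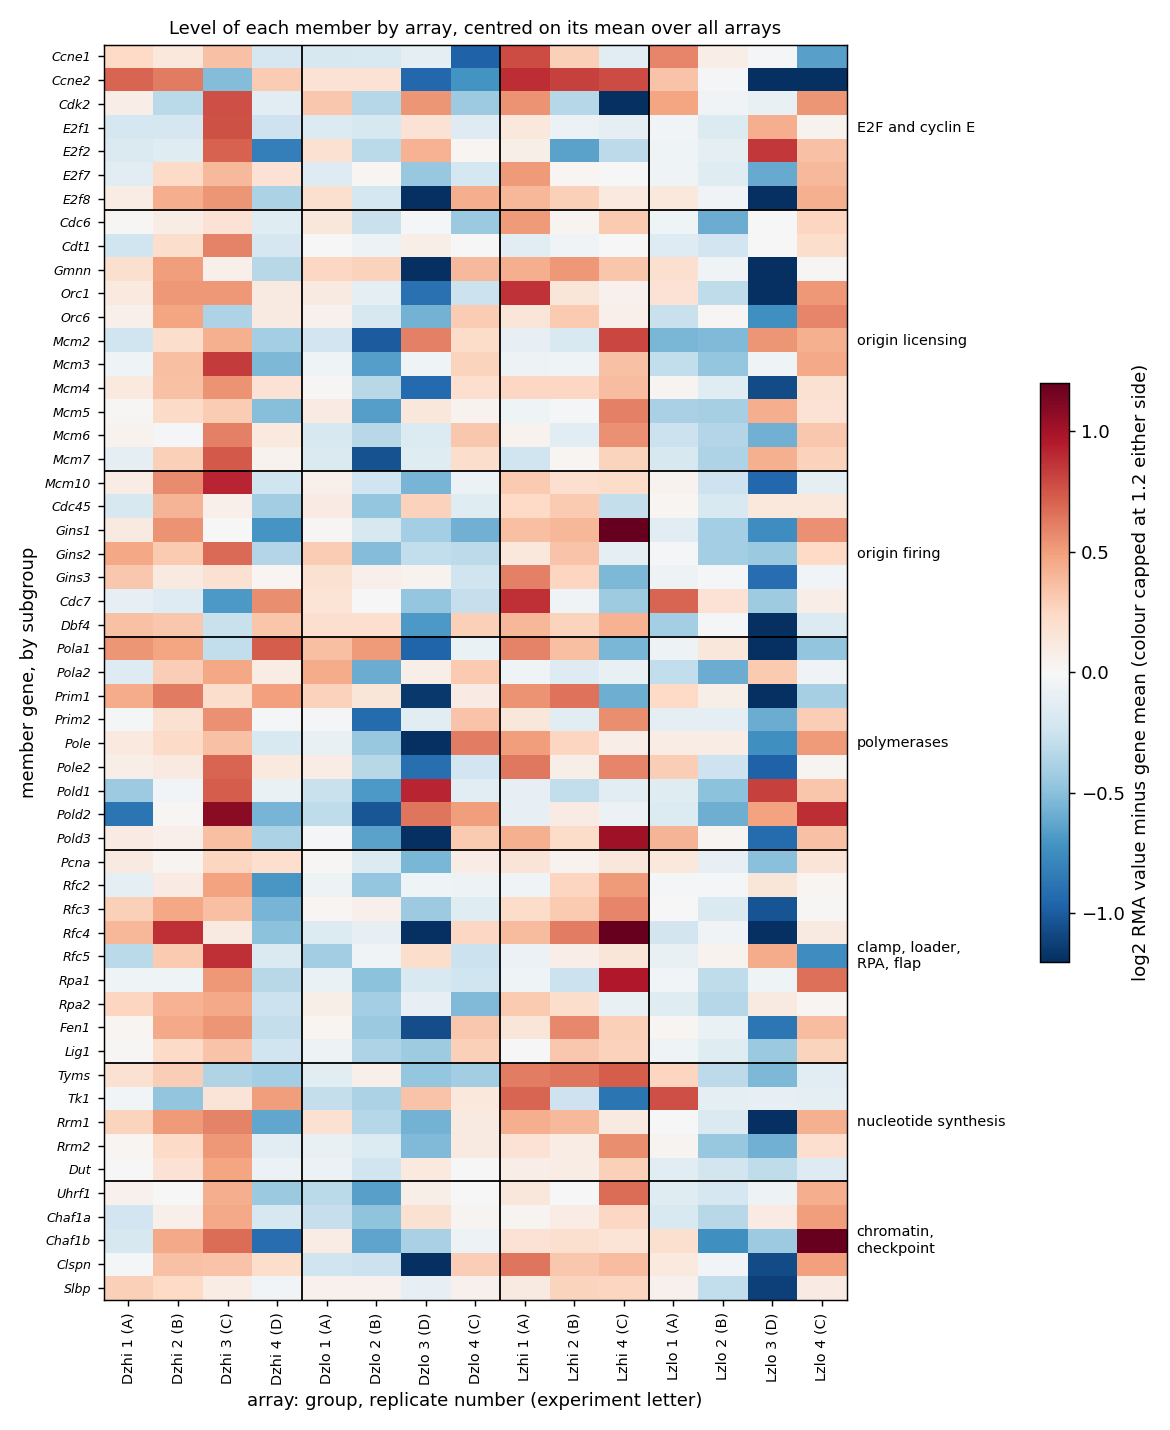
Heat map of the 53 genes (rows of the map, grouped by role) over the 15 arrays (columns, with the experiment letter); colour is the log2 RMA value minus the gene's mean over all arrays, capped at 1.2 either side. Lzlo replicate 3 has the lowest value of 22 genes and the highest of 1, E2f2. Several other genes, among them Mcm2, Mcm5, Mcm7, Pold1 and Pold2, are above their mean there.

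No gene of the 53 passed the test in any comparison. With limma over all 15 arrays and Benjamini-Hochberg adjustment over 19938 genes, 0 of 53 had an adjusted p under 0.05 between zones over both affinities, where 31 genes (0.155%) were called, between zones in high affinity cells (3 genes, 0.015%) and between zones in low affinity cells (2 genes, 0.01%). Between affinities, 0 genes of any kind were called in the light zone (0%), the dark zone (0%), both zones together (0%) or for the interaction of affinity and zone (0%). The direction of the 53 differences, their medians and their values in each array are therefore described. Counts at an unadjusted p under 0.05 are given beside the same share of all genes. The 53 genes were measured in the same 15 arrays, so their counts are not counts of independent observations.

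Between affinities the 53 genes leaned one way, although none passed the test. Over both zones, 48 of the 53 genes were above 0 in high relative to low affinity cells, with a median log2 difference of 0.32, against 10022 of 19938 genes (50.3%) and a median of 0.0007 over all genes. An unadjusted p under 0.05 was reached by 17 of the 53, all higher in high affinity cells, beside 1.63% of all genes; with the experiment as a block it was 25 of 53 beside 2.7%. Leaving out Dzhi replicate 2 left 10 such genes, and leaving out Dzlo replicate 3 or Lzhi replicate 1 left 11. Without both Lzlo replicate 3 and Dzlo replicate 3, 49 of 53 genes were above 0, the median was 0.22 and 9 reached an unadjusted p under 0.05, beside 1.71% of all genes. The difference became over 1.5 times smaller for 25 of the 53 genes, over 1.5 times larger for 9, and changed sign for 3. In 7 pairs of arrays that share an experiment and a zone, 9 genes were higher in the high affinity array of all 7 pairs, beside 0.843% of all genes: Ccne2, Lig1, Mcm10, Mcm4, Mcm6, Pold3, Rrm2, Slbp and Tyms. Slbp is in that count through its brighter probe set only, as given with its levels. In bulk samples a smaller share of cells in S phase and less RNA per cell cannot be told apart.

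Taken per array as the median of the 53 genes after each gene's mean was subtracted, the level was 0.05, 0.23, 0.46 and -0.19 in Dzhi and 0.01, -0.33, -0.30 and 0.02 in Dzlo (replicates 1 to 4 of each). It was 0.22, 0.20 and 0.25 in Lzhi and -0.04, -0.17, -0.50 and 0.21 in Lzlo. The Lzhi arrays lay close together, and Lzlo replicate 4, of experiment C, stood among them, while the dark zone groups overlapped through Dzhi replicate 4. The arrays with the most neutrophil marker signal were among the 3 lowest here, and the part of these markers in the affinity result was not tested beyond leaving those arrays out.

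**Figure D2:**
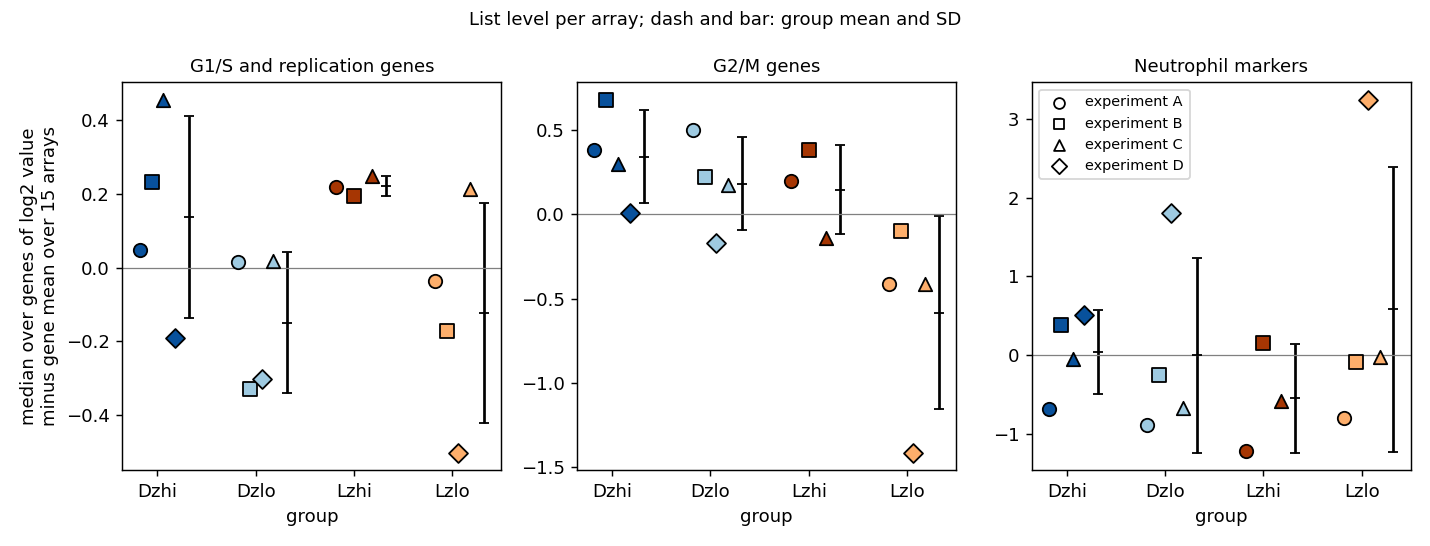
Median over genes of the log2 value minus the gene mean, per array, for the 53 G1/S and replication genes, 29 G2/M genes and 12 neutrophil markers; marker shapes give the experiment, the dash and bar the group mean and SD (n = 4, 4, 3 and 4 arrays). Lzlo replicate 3 is lowest in the first panel (-0.50) and highest in the last (3.24); the vertical axes differ between panels.

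In the light zone, 45 of the 53 genes were above 0 in Lzhi relative to Lzlo, with a median of 0.30 against -0.0003 for all genes. An unadjusted p under 0.05 was reached by 10, all higher in Lzhi, beside 1.64% of all genes, and by 12 beside 2.12% with the experiment block. That count fell to 4 without Lzlo replicate 3, 5 without Lzhi replicate 4 and 6 without Lzlo replicate 2, and was 16 without Lzlo replicate 4, where the median was 0.45. The median without Lzlo replicate 3 was 0.23. Every Lzhi array lay above every Lzlo array for 10 genes, beside 2.26% of all genes: Ccne2, Gmnn, Mcm4, Mcm10, Dbf4, Rfc3, Rfc4, Tyms, Dut and Slbp (for the last, by its brighter probe set). Within experiments the median difference of the 53 genes was 0.24 in A, 0.35 in B and -0.01 in C, where Lzlo replicate 4 is the low affinity array.

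In the dark zone, 51 of the 53 genes were above 0 in Dzhi relative to Dzlo, with a median of 0.27 against 0.0015 for all genes; without Dzlo replicate 3 it was 49 of 53 and 0.22. Plasma cell markers moved the same way, with 11 of 12 above 0 and a median of 0.36, and their part in the result was not tested. An unadjusted p under 0.05 was reached by 2 genes, Pole2 and Rpa2, beside 0.757% of all genes, and by 16 beside 1.36% with the experiment block. Single arrays decided that count: it was 0 without Dzhi replicate 2 or Dzlo replicate 2, and 8 without Lzlo replicate 3, which enters through the shared spread. It was 4 without Dzhi replicate 1 or 4, 5 without Dzlo replicate 1 and 6 without Dzlo replicate 4. It was 1 without Dzhi replicate 3, Dzlo replicate 3, Lzhi replicate 1, Lzhi replicate 4, Lzlo replicate 2 or Lzlo replicate 4. No gene had every Dzhi array above every Dzlo array (0 of 53, beside 0.632% of all genes). Within experiments the median difference was 0.05 in A, 0.56 in B, 0.42 in C and 0.06 in D, so that B and C held most of it. The median of the interaction, the light zone difference minus the dark zone difference, was 0.03 with 28 of 53 genes above 0 and 1 gene, Tyms, at an unadjusted p under 0.05, beside 1.33% of all genes. The median changed sign with the experiment block (-0.10) and without Lzlo replicate 3 (-0.11). Dropping any one of several other arrays turned it as well; over all arrays left out in turn it lay between -0.11 and 0.12.

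**Figure D3:**
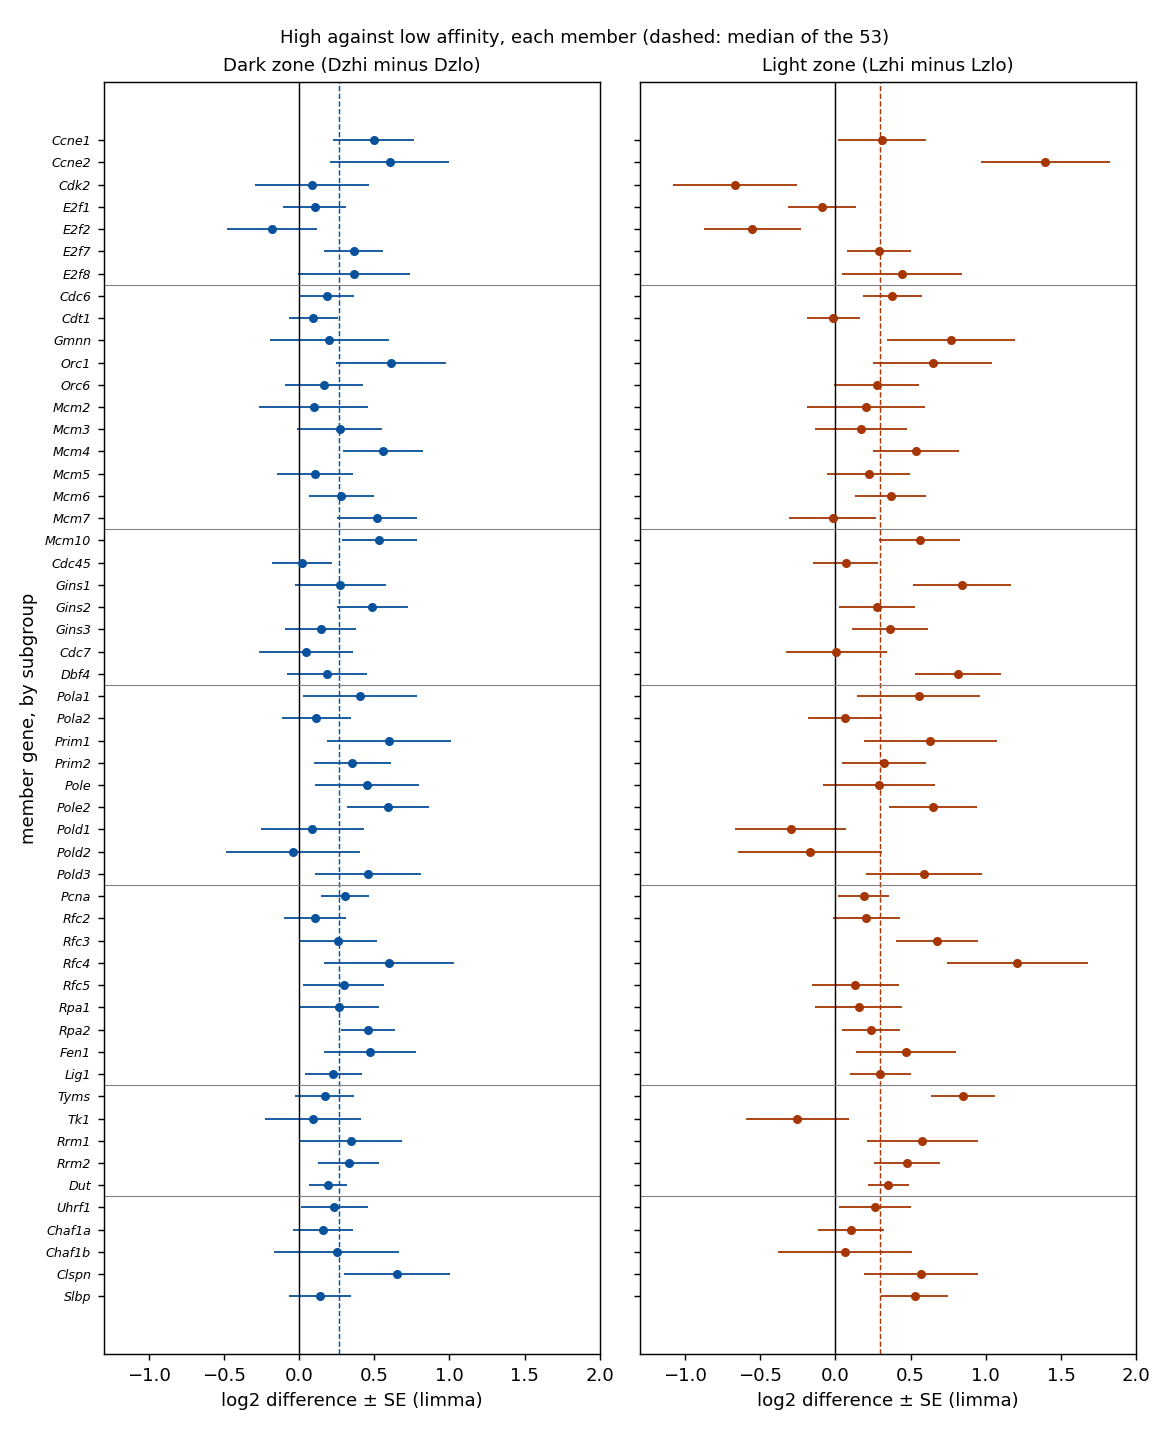
Log2 difference between high and low affinity cells with its SE from limma, for each of the 53 genes, in the dark zone (left) and the light zone (right); dashed lines are the medians, 0.27 and 0.30. All but 2 genes lie right of 0 in the dark zone and all but 8 in the light zone.

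**Figure D4:**
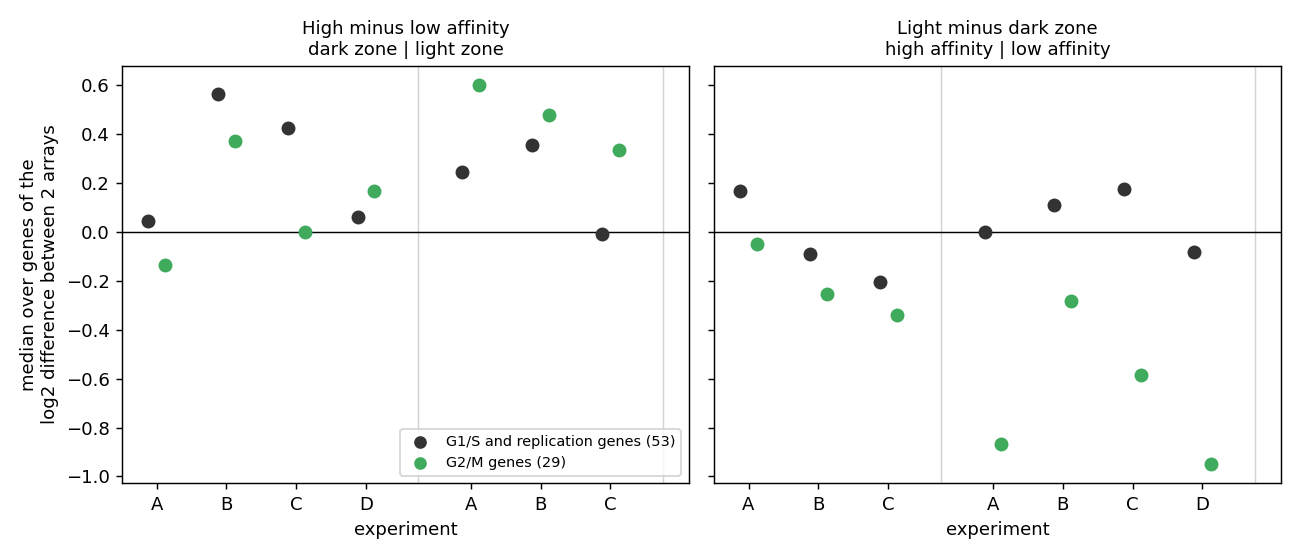
Median over genes of the log2 difference between the 2 arrays of one experiment, for the 53 genes (dark) and 29 G2/M genes (green), between affinities (left) and between zones (right). The affinity difference of the 53 genes is -0.01 in the light zone of experiment C and 0.05 to 0.56 in the dark zone of the 4 experiments.

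Of the E2F and cyclin E genes, 5 of 7 were above 0 in the affinity comparison over both zones (median 0.33); without both experiment D low arrays it was again 5 of 7, with a median of 0.11. Ccne2 encodes cyclin E2, a partner of Cdk2 at the start of S phase. Its levels were 8.96, 8.89 and 8.86 in Lzhi and 8.42, 8.06, 6.77 and 6.75 in Lzlo. The dark zone arrays had 8.77, 8.70, 7.55 and 8.38 in Dzhi and 8.25, 8.25, 7.13 and 7.36 in Dzlo. The light zone groups did not overlap, and Lzlo replicates 3 and 4 were far below the other light zone arrays; in the dark zone the lowest values were those of Dzlo replicates 3 and 4 and Dzhi replicate 3, from experiments D, C and C. The Ccne2 difference was 1.40 ± 0.43 (SE) in the light zone (2.63-fold; limma adjusted p = 1), 0.60 ± 0.40 in the dark zone and 1.00 ± 0.29 over both (adjusted p = 0.999; 0.358 with the experiment block), and Ccne2 was higher in 7 of 7 pairs. The dark zone value was 0.40 ± 0.39 without Dzlo replicate 3.

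Ccne1, the other cyclin E gene, had 8.09, 7.98, 8.20 and 7.65 in Dzhi and 7.66, 7.67, 7.74 and 6.88 in Dzlo, against 8.63, 8.14 and 7.71 in Lzhi and 8.44, 7.93, 7.83 and 7.20 in Lzlo. It was highest in experiment A of the light zone and lowest in experiment C of each low affinity group, and all groups overlapped. Its zone difference was 0.27 ± 0.20 (adjusted p = 1). E2f7, an atypical E2F that represses E2F targets late in S phase, had 7.52, 7.88, 8.04 and 7.83 in Dzhi against 7.50, 7.68, 7.20 and 7.44 in Dzlo, a difference of 0.36 ± 0.20 (adjusted p = 1). The ranges overlapped only through Dzhi replicate 1 and Dzlo replicate 2. E2f8, its close relative, was at 0.40 over both zones, and at 0.06 without both experiment D low arrays.

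The activator E2Fs among the 53 genes had no positive difference of like size. E2f1 was at 0.01 over both zones and at 0.11 without both experiment D low arrays. E2f2, the other activator among the 53, had 7.54, 7.57, 8.42 and 6.90 in Dzhi, 7.90, 7.39, 8.13 and 7.74 in Dzlo, 7.79, 7.07 and 7.40 in Lzhi, and 7.66, 7.60, 8.56 and 8.07 in Lzlo. Its highest level was in Lzlo replicate 3, the array that held the lowest value of 22 of the 53 genes. The E2f2 difference was -0.37 ± 0.22 over both zones and -0.21 ± 0.22 without both experiment D low arrays, and 3 of 7 pairs were higher. In the light zone it was -0.55 (95% interval -1.24 to 0.14), and -0.36 ± 0.32 without Lzlo replicate 3. Cdk2 was -0.29 over both zones and -0.67 in the light zone, where Lzhi replicate 4 had 6.65 and the other light zone arrays 7.86 or more.

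All 11 origin licensing genes were above 0 over both zones, with a median of 0.25, and 0.28 without both experiment D low arrays. Mcm4, a helicase subunit, had 9.47, 9.71, 9.89 and 9.53 in Dzhi and 9.37, 9.02, 8.42 and 9.56 in Dzlo. Its light zone levels were 9.60, 9.60 and 9.72 in Lzhi and 9.39, 9.21, 8.28 and 9.54 in Lzlo. The light zone groups did not overlap, with Lzlo replicate 4 just below the lowest Lzhi array, and the lowest value of each low affinity group belonged to experiment D. The Mcm4 difference was 0.56 ± 0.27 in the dark zone and 0.54 ± 0.29 in the light zone (limma adjusted p = 1 for each), and it was higher in 7 of 7 pairs. Without both experiment D low arrays the values were 0.34 ± 0.15 (dark zone) and 0.26 ± 0.16 (light zone).

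Cdc6, which loads the helicase, had 8.54, 8.06 and 8.34 in Lzhi, 7.98, 7.43, 8.03 and 8.29 in Lzlo, 8.04, 8.12, 8.20 and 7.88 in Dzhi, and 8.16, 7.76, 8.01 and 7.58 in Dzlo. Lzlo replicate 2 and Dzlo replicates 2 and 4 were lowest, and the groups overlapped. The Cdc6 light zone difference was 0.38 ± 0.19 and the zone difference 0.15 ± 0.13 (adjusted p = 1 for each). Orc1 had the largest licensing difference over both zones, 0.63 ± 0.27 (0.32 ± 0.17 without both experiment D low arrays), and ranged from 5.02 in Lzlo replicate 3 to 7.44 in Lzhi replicate 1. Gmnn, the inhibitor of Cdt1, was at 0.48, and at 0.09 without those arrays, and Cdt1 itself at 0.04. The other Mcm subunits lay between 0.15 (Mcm2; 0.36 without those arrays) and 0.32 (Mcm6), and Mcm6 was higher in 7 of 7 pairs.

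All 7 origin firing genes were above 0 over both zones, with a median of 0.38; without both experiment D low arrays it was 6 of 7 and 0.25. Mcm10, a helicase-associated firing factor, had 7.98, 8.46, 8.80 and 7.65 in Dzhi and 7.95, 7.65, 7.33 and 7.82 in Dzlo. In the light zone it had 8.20, 8.09 and 8.11 in Lzhi and 7.93, 7.64, 6.95 and 7.77 in Lzlo. Lzhi lay above Lzlo without overlap, whereas Dzhi replicate 4 fell inside the Dzlo range. The Mcm10 difference was 0.53 ± 0.25 in the dark zone, 0.56 ± 0.27 in the light zone and 0.55 over both (adjusted p = 0.999; 0.455 with the experiment block). The light zone value was 0.35 ± 0.24 without Lzlo replicate 3.

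Dbf4, the activating subunit of the Cdc7 kinase, had 9.12, 8.99 and 9.14 in Lzhi and 8.32, 8.70, 7.49 and 8.56 in Lzlo. The groups did not overlap, and the light zone difference was 0.82 ± 0.29 (1.76-fold; adjusted p = 1). In the dark zone the levels were 9.08, 9.05, 8.46 and 9.06 in Dzhi and 8.93, 8.93, 8.04 and 9.01 in Dzlo, a difference of 0.18 ± 0.27, and of -0.05 ± 0.16 without Dzlo replicate 3. One array of each dark zone group was low, replicate 3 in both, from different experiments. Cdc7, the kinase itself, was at 0.03 over both zones, and at -0.12 without both experiment D low arrays. Gins1, a subunit of the GINS complex, had 9.07, 9.11 and 9.92 in Lzhi, 8.57, 8.30, 7.96 and 9.26 in Lzlo, 8.82, 9.25, 8.70 and 8.0 in Dzhi, and 8.72, 8.52, 8.30 and 8.13 in Dzlo. Its highest level was in Lzhi replicate 4, and the groups overlapped. The zone difference of Gins1 was 0.39 ± 0.22 (adjusted p = 1), and the affinity difference over both zones was 0.56.

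Among the polymerases 7 of 9 genes were above 0 over both zones, with a median of 0.37; without both experiment D low arrays all 9 were, with a median of 0.18. Pole2, the second subunit of the leading strand polymerase epsilon, had 8.12, 8.16, 8.75 and 8.17 in Dzhi and 8.14, 7.72, 7.15 and 7.82 in Dzlo. Its light zone levels were 8.69, 8.12 and 8.64 in Lzhi and 8.35, 7.81, 7.08 and 8.09 in Lzlo. Dzlo replicate 1 and Lzlo replicate 1, both from experiment A, were the low affinity arrays that overlapped the high affinity range. The Pole2 difference was 0.59 ± 0.27 in the dark zone and 0.65 ± 0.29 in the light zone (adjusted p = 1 for each; 0.41 ± 0.20 and 0.40 ± 0.22 without both experiment D low arrays), and it was higher in 6 of 7 pairs.

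Prim1, the primase catalytic subunit, was at 0.62 over both zones, Pola1 at 0.48 and Pole at 0.37; without both experiment D low arrays they were at 0.25, 0.18 and 0.07. Of the polymerase delta genes, Pold1, the catalytic subunit, and Pold2 were at -0.11 and -0.10, each higher in 4 of 7 pairs, while Pold3 was at 0.52. Without those arrays Pold1 was at 0.17, Pold2 at 0.06 and Pold3 at 0.22. Pold3 had 9.60, 9.39 and 10.19 in Lzhi, 9.58, 9.20, 8.25 and 9.52 in Lzlo, 9.27, 9.23, 9.53 and 8.79 in Dzhi, and 9.15, 8.53, 7.84 and 9.48 in Dzlo. Both low affinity arrays of experiment D were lowest in their groups, and the groups overlapped. The Pold3 difference between zones was 0.46 ± 0.26 (adjusted p = 1), with the light zone array higher in 7 of 7 pairs. The share of all genes with 7 of 7 zone pairs was not counted.

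All 9 genes of the clamp, its loader, RPA and flap processing were above 0 over both zones, with a median of 0.26, and all 9 remained so without both experiment D low arrays, with a median of 0.22. Rfc4, a subunit of the clamp loader, had 8.99, 9.23 and 9.97 in Lzhi and 8.39, 8.57, 7.04 and 8.72 in Lzlo. In the dark zone it had 9.01, 9.49, 8.72 and 8.12 in Dzhi and 8.45, 8.51, 7.12 and 8.86 in Dzlo. The light zone groups did not overlap, and the low affinity arrays of experiment D were the lowest of all 15. The Rfc4 difference was 1.21 ± 0.47 in the light zone (2.31-fold; adjusted p = 1) and 0.60 ± 0.43 in the dark zone, and 0.90 over both. Without those arrays it was 0.83 ± 0.31, 0.23 ± 0.29 and 0.53 ± 0.22.

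Rfc2, another loader subunit, had 9.36, 9.57, 9.96 and 8.77 in Dzhi, 9.41, 9.01, 9.42 and 9.41 in Dzlo, 9.43, 9.73 and 9.98 in Lzhi, and 9.46, 9.46, 9.62 and 9.50 in Lzlo. Every Lzlo array lay above every Dzlo array, and the light zone array was higher in 7 of 7 pairs, as for 3 of the 53 genes in all. The shares of all genes that do so between zones were not counted. Its zone difference was 0.25 ± 0.15 (adjusted p = 1). Rpa2, of the complex that coats single-stranded DNA, had 8.40, 8.56, 8.60 and 7.89 in Dzhi and 8.22, 7.74, 8.05 and 7.62 in Dzlo, and Dzhi replicate 4 was the array that overlapped the low affinity group. The Rpa2 difference in the dark zone was 0.46 ± 0.18 (adjusted p = 1). Pcna, the clamp, was at 0.25 over both zones and Fen1, the flap nuclease, at 0.47, and without both experiment D low arrays they were at 0.11 and 0.22.

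Of the nucleotide synthesis genes 4 of 5 were above 0 over both zones, with a median of 0.40, and 0.28 without both experiment D low arrays. Tyms, thymidylate synthase, had 8.85, 8.88 and 8.96 in Lzhi and 8.49, 7.92, 7.70 and 8.10 in Lzlo. The dark zone levels were 8.42, 8.53, 7.88 and 7.83 in Dzhi and 8.10, 8.30, 7.77 and 7.82 in Dzlo. The 3 Lzhi arrays were above all 12 others, with no overlap. The Tyms difference was 0.85 ± 0.21 in the light zone (1.80-fold; adjusted p = 1), 0.17 ± 0.20 in the dark zone (0.10 ± 0.20 without Dzlo replicate 3) and 0.51 over both, with 7 of 7 pairs higher. The interaction of affinity and zone for Tyms was 0.68 ± 0.29 (unadjusted p = 0.0341, adjusted p = 1). Between zones its difference was 0.40 ± 0.14 over both affinities (adjusted p = 0.773) and 0.73 ± 0.21 in high affinity cells (adjusted p = 0.999).

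Rrm2, the regulated subunit of ribonucleotide reductase, had 9.91, 10.12, 10.41 and 9.76 in Dzhi and 9.80, 9.72, 9.36 and 10.00 in Dzlo. The groups overlapped between 9.76 and 10.00, and the dark zone difference was 0.33 ± 0.20 (adjusted p = 1), or 0.21 ± 0.19 without Dzlo replicate 3. Over both zones Rrm2 differed by 0.40 and was higher in 7 of 7 pairs, Rrm1 by 0.46 (0.21 without both experiment D low arrays) and Dut, which keeps dUTP out of DNA, by 0.27. Tk1, thymidine kinase of the salvage route, was at -0.08 (-0.05 without those arrays); a second probe set of Tk1, with a mean level of 8.14 against 9.11, gave 0.17 for affinity and 0.47 ± 0.12 between zones (unadjusted p = 0.00184), where the brighter set gave -0.0046.

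All 5 genes of chromatin assembly and checkpoint control were above 0 over both zones, with a median of 0.25, and 0.20 without both experiment D low arrays. Clspn, claspin, which passes the replication stress signal to Chk1, had 8.72, 9.09, 9.08 and 8.95 in Dzhi and 8.50, 8.48, 7.22 and 9.04 in Dzlo. Only Dzlo replicate 4 overlapped the Dzhi range, and the difference was 0.65 ± 0.35 (adjusted p = 1); it was 0.29 ± 0.17 without Dzlo replicate 3. Slbp, which binds histone mRNA, had 10.25, 10.41 and 10.40 in Lzhi and 10.19, 9.85, 9.02 and 10.24 in Lzlo, a difference of 0.53 ± 0.22 in the light zone (adjusted p = 1) with no overlap, Lzlo replicate 4 lying just below the lowest Lzhi array. It was 0.26 ± 0.13 without Lzlo replicate 3. A second probe set of Slbp, at 9.85 against 10.14, differed by -0.0056 there and by -0.004 over both zones. Uhrf1, which guides maintenance methylation at replication forks, had 10.96, 10.83 and 11.49 in Lzhi, 10.68, 10.62, 10.76 and 11.26 in Lzlo, 10.87, 10.82, 11.26 and 10.38 in Dzhi, and 10.50, 10.17, 10.89 and 10.83 in Dzlo. The array of experiment C was highest in 3 of the 4 groups, and the zone difference was 0.25 ± 0.16 (adjusted p = 1).

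**Figure D5:**
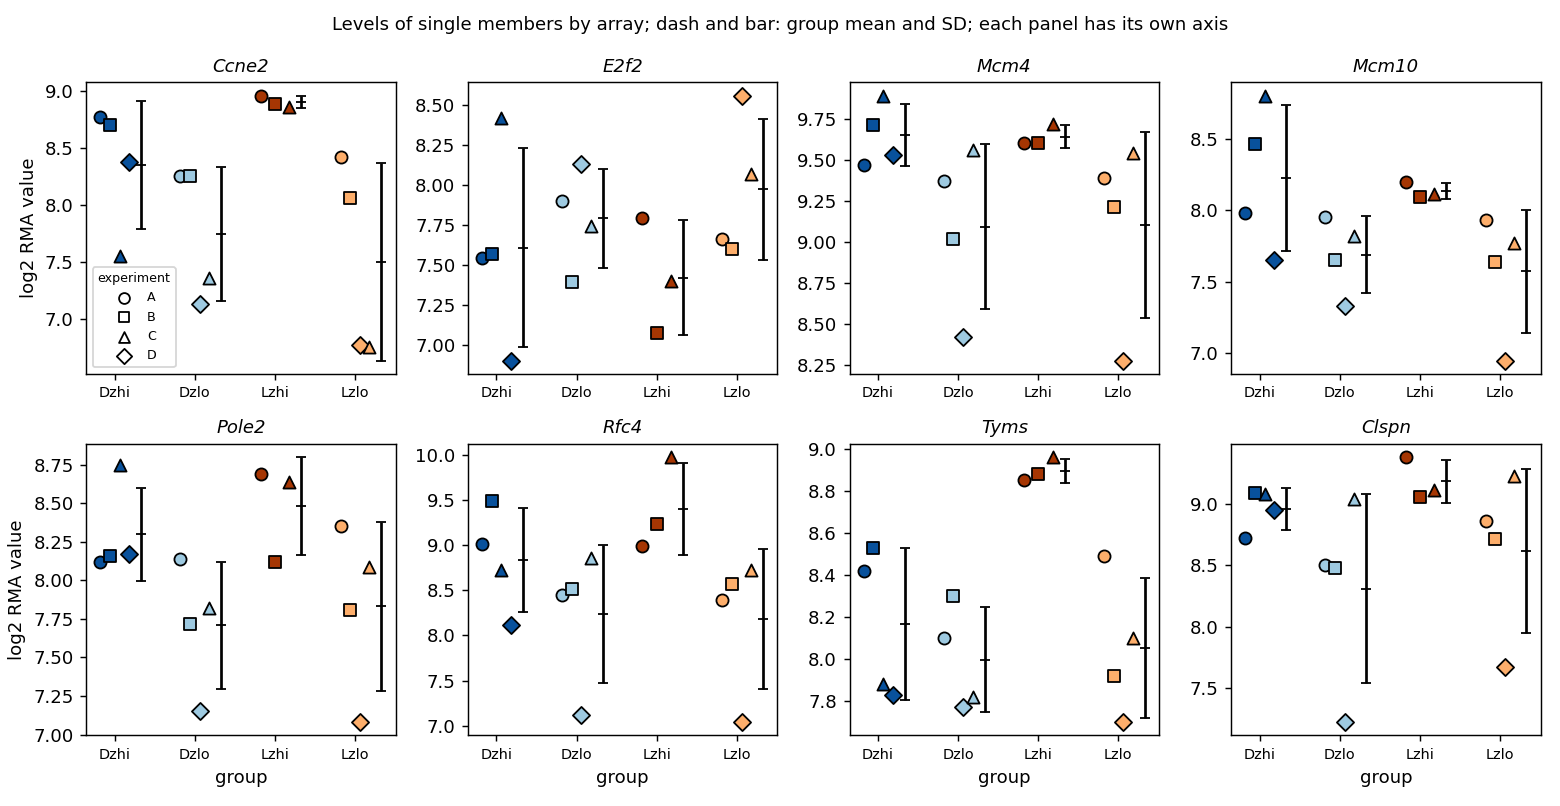
Log2 RMA level of 8 of the genes in each of the 15 arrays, by group, with marker shapes for the experiment and the group mean and SD beside the points; each panel has its own vertical axis, which does not start at 0. The Lzhi arrays of Ccne2, Mcm4, Mcm10, Rfc4 and Tyms lie above all Lzlo arrays, and E2f2 is highest in Lzlo replicate 3.

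Between the zones the medians of the 53 genes lay near 0. Over both affinities 36 of 53 were above 0 in light relative to dark zone cells, with a median of 0.05 against -0.0054 for all genes. Tyms alone reached an unadjusted p under 0.05 (1 of 53, beside 4.38% of all genes), as it did in high affinity cells (1 of 53, beside 2.8%); in low affinity cells 0 of 53 did, beside 3.53%. The median was 0.10 in high affinity cells (34 of 53 above 0) and 0.06 in low affinity cells (36 of 53). Signs depended on single arrays: in high affinity cells the median was -0.01 with the experiment block and -0.0053 without Dzhi replicate 4, and in low affinity cells it was -0.07 without Lzlo replicate 4 and -0.02 without Dzlo replicate 3. Within experiments the high affinity median was 0.17 in A, -0.09 in B and -0.20 in C. The low affinity median was 0.11 in B, 0.18 in C and -0.08 in D, and 26 genes were above and 26 below in A. By subgroup the zone median ran from -0.06 for origin firing to 0.25 for chromatin assembly and checkpoint genes. The lowest single values were Pola1 at -0.30, Prim1 at -0.26 and Pola2 at -0.24, and the highest were Pold3 at 0.46 and Tyms at 0.40. The lowest are all of the priming polymerase, but its other subunit, Prim2, did not share this. Its mean was 7.19 in Lzhi and 7.17 in Dzhi, and 6.87 in Lzlo and 6.82 in Dzlo.

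The G2/M genes, a list of 29 that act in mitosis, lay differently in the same arrays. Between zones 27 of 29 were below 0 in the light zone, with a median of -0.48. An unadjusted p under 0.05 was reached by 14 of them, all lower, beside the 4.38% of all genes given above; 0 passed the adjusted test, and 6 did with the experiment block, beside 0.451% of all genes. For affinity the G2/M median was 0.76 in the light zone (29 of 29 above 0) and 0.08 in the dark zone (24 of 29), where the 53 G1/S and replication genes had 0.30 and 0.27. Whether the lists differ was not tested. The G2/M score of Lzlo replicate 3 was -1.41, the lowest of all arrays, as it was for the 53 genes. Its mean G2/M level was 7.44, against 8.44 to 8.89 in the other Lzlo arrays. The G2/M medians above are not given without that array.

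Lists of other genes of the same pathway were made by role, but with earlier results of these data known, and are no independent support. The genes named from each list are its extremes by t. These other genes also mostly lay above 0 between affinities over both zones, and 0 of them passed the test. An unadjusted p under 0.05 was reached by 4 of the other G1/S control genes, 2 of the other replication genes and 6 of the nucleotide and chromatin genes in that direction, beside 1.63% of all genes, and by 1 replication gene in the opposite one. Of 22 other G1/S control genes 16 were above 0, with a median of 0.26; Ccna2, cyclin A2, was at 0.44 ± 0.11 (limma adjusted p = 0.839) and E2f4, a mostly repressive E2F, at -0.27 ± 0.15. Of 32 other replication genes 30 were above 0, with a median of 0.26; Chek1, the checkpoint kinase below claspin, was at 1.04 ± 0.37 and Pold4, the smallest subunit of polymerase delta, at -0.55 ± 0.19 (adjusted p = 0.999 for each). Of 23 other nucleotide and chromatin genes 22 were above 0, with a median of 0.34; Cdca7, a chromatin factor that E2F regulates, was at 0.74 ± 0.24, and Samhd1, which degrades dNTPs, at -0.12 ± 0.09. The 4 linker histones measured had a median of 0.17, with H1f3 at 0.14 ± 0.12. For these lists the fit without both experiment D low arrays is not given. The mean level of the other replication genes was 7.58 in Dzlo replicate 3 and 7.43 in Lzlo replicate 3. In the other low affinity arrays it was 8.28 to 8.46. The other G1/S control genes and the nucleotide and chromatin genes were also lowest in those arrays, and the linker histones were not. The part of those arrays in these medians was not tested.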

How the data were processed

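The authors deposited log2 expression values of 28853 probe sets, made with RMA (background correction, quantile normalization and summarising of probes), and genome build mm8 is named, both per the submitters' processing notes; the software is not given in the sources used here. Differences of dim probe sets are compressed by RMA. Groups and replicate numbers came from the sample titles. Of the probe sets, 21789 had 1 gene symbol, 1621 several and 5443 none in the platform annotation; only the first were used, with the highest mean set per gene, which gave 19938 genes without a filter on dim genes. The annotation can be old, and genes of the lists that found no probe set were not analysed here.

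Limma 3.58.1 in R 4.3.3 fitted 4 group means (lmFit, eBayes; 11 residual degrees of freedom), with Benjamini-Hochberg adjustment over all genes per comparison; the code was tested on simulated data. The 53 genes, the lists and the tests were chosen with earlier results of these data known. The rule gave values in every array to the gene with the largest absolute t of each subgroup in 3 comparisons (zone, affinity in each zone), and named the extreme gene of each pathway list in each direction; other genes were named after their values were seen, and every array value given for them too (E2f2). Array medians lay between 5.57 and 5.74, correlations between arrays between 0.940 and 0.993, and none was treated as a duplicate. The experiment codes, one of which is written differently in the dark and light zone descriptions, were used as a block: deviations from group means correlated on average at 0.29 over 21 pairs of arrays with the same code (16 above 0.1) and at -0.08 over 63 other pairs. Alternatives were other blocks, median centring, a filter on dim genes, the mean of all probe sets, trended and robust variances, array weights, all probe sets with 1 symbol, only the groups compared, and arrays left out. Promoter sequences are from RefSeq, build GRCm38.p6. Figures were drawn with matplotlib 3.10.9.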

Additional observations from a re-analysis of the deposited data

Results flagged for a closer look

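Dixon's criterion was applied to 99 groups of 4 arrays, over the 18 genes named by the rule and over scores of lists. In all, 6 values stood apart, and chance flags about 1 in 20 groups. All 6 were of genes, so the share flagged was higher among the genes than over all groups. Ccne1 was 6.88 in Dzlo replicate 4 (next array 7.66), and Rfc2 was 9.01 in Dzlo replicate 2 (next 9.41). Dbf4 was 8.46 in Dzhi replicate 3 (next 9.05) and 8.04 in Dzlo replicate 3 (next 8.93). Pole2 was 8.75 in Dzhi replicate 3 (next 8.17), the only one of the 6 above its group. Slbp was 10.04 in Dzlo replicate 3, where the 3 other arrays all had 10.19.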

How the results depend on the processing

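No gene of the 53 passed the test under any alternative, and no median over the 53 moved by more than the spread between arrays, although those near 0 (the zone medians within one affinity and the interaction) changed sign. What moved was the count of genes higher in high affinity cells at an unadjusted p under 0.05. In the light zone it was 10, 6 with array weights and 4 to 16 with single arrays left out. In the dark zone it was 2, 16 with the replicate block by experiment, 15 with the replicate block by code as written and 9 with the replicate block by title number. There it was 1 with each array centred on its median, 1 among genes above the median level, 0 with trended and robust variances, 7 without experiment D, 6 with only the 2 groups compared and 0 to 8 with single arrays left out. Over both zones it was 17, and 10 to 23 with single arrays left out. Leaving out Lzlo replicate 3 and Dzlo replicate 3 together, chosen after seeing the data, gave 5 in the light zone and 9 over both. The replicate block by experiment changed no call among the 53 genes, while over all genes the calls between zones went from 31 to 90 over both affinities. The cause of these moves was not tested. The 3 or 4 arrays of a group limit the precision. The labels do not say how many cells or mice each sample held.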
